A study of Mus musculus with 24 samples.

Results

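The GMP-only elements are open chromatin regions that were called in granulocyte macrophage progenitors (GMP) of mouse bone marrow and in none of the other 9 primary blood cell populations profiled beside them. Open DNA was mapped by ATAC-seq, where a transposase inserts sequencing adapters into accessible chromatin, and this gave one list of peaks for each of 24 libraries from 12 cell types, with 2 libraries per type. A peak was kept when it overlapped, by at least 1 bp, a peak of the other library of its type. The kept peaks of the 10 primary types were merged by the same overlap into 203413 elements, of which 12054 were called in GMP alone. These make up 5.93% of all primary elements and 10.5% of the 114616 elements called in GMP.

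GMP, CMP (common myeloid progenitors), LSK cells (negative for lineage markers, positive for Sca1 and Kit), MEP (megakaryocyte erythroid progenitors), the megakaryocyte branch, with CFUMK (colony forming units) and iMK (immature megakaryocytes), and the erythroid branch, with CFUE (colony forming units) and ERY (erythroblasts), came from bone marrow of adult C57BL6 mice. Monocytes (MON) and neutrophils (NEU) came from peripheral blood of the same strain, and the study's methods give male mice for all primary types. The primary mice carried no stated allele or treatment. The 2 cell lines took no part in the choice of elements. G1E-ER4+E2 is a single G1E clone, labelled as treated with estradiol (E2). In it an estradiol-dependent hybrid of GATA1 and the estrogen receptor restores GATA1. G1E is an erythroid-committed progenitor line that lacks GATA1, and its label gives no treatment. The 2 lines thus differ by the treatment as well as by the hybrid. The study describes replicates as separate groups of mice or separate aliquots without saying which for each library, so a p-value here may measure technical spread only.

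GMP are the bone marrow progenitors that give rise to neutrophils and to monocytes, and they already express genes of the primary granules. C/EBP alpha, a leucine zipper protein that binds its site as a dimer, is required for their formation from earlier progenitors. C/EBP family members also pair with ATF proteins on a composite site. PU.1, the ETS protein encoded by Spi1, acts beside them in myeloid cells and binds a purine-rich site. GATA factors mark the erythroid, megakaryocyte and mast cell branches instead.

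The windows below show what the elements look like as DNA, and they were taken by rank of the peak score in the GMP libraries. Each is 200 bp about the element centre, read 5′ to 3′ on the + strand of GRCm38 (mm10), with matches to the CEBP, CEBP-ATF composite, PU.1, IRF and AP-1 motifs in capitals. Of 4 windows chosen by the highest scores, 3 hold such a match. Mapkapk3 encodes a kinase downstream of p38, and its element lies in an intron at chr9:107286713-107286912, 2.5 kb from the nearest transcript start. Rap2a encodes a small GTPase of the Ras family, and its element lies in an intron at chr14:120480620-120480819. Siva1 encodes a protein that promotes apoptosis, and its element lies within 1 kb of a transcript start of the gene at chr12:112648119-112648318. The last window, chr11:87779511-87779710, is the only one with a match among 8 taken by the same rank near myeloid genes, apart from one that overlaps a UTR and is not shown. It lies inside Tspoap1, within 1 kb of a transcript start of that gene, and within 20 kb of Mpo, the myeloperoxidase gene of the primary granules.
Mapkapk3: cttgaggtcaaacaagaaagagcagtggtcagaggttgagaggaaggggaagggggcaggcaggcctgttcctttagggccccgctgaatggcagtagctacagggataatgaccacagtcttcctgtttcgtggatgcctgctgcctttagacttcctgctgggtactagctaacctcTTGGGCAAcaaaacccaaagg
Rap2a: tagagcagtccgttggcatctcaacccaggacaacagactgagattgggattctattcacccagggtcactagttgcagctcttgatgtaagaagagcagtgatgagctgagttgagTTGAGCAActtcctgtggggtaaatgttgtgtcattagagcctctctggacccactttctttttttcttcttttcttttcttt
Siva1: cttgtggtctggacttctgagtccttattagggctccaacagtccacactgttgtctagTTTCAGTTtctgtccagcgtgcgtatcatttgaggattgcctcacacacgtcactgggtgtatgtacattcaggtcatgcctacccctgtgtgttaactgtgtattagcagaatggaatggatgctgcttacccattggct
Tspoap1: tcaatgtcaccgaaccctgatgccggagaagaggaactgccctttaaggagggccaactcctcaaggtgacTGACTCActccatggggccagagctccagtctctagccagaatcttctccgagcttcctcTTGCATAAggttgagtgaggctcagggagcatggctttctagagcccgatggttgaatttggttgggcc
The Mapkapk3 and Rap2a windows each carry 1 CEBP match, the Tspoap1 window a CEBP and an AP-1 match, and the Siva1 window an IRF match.

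Another set shows windows near genes of myeloid transcription factors. These were chosen after their values were seen, for a match to a C/EBP motif, and they support no count. Myb encodes a factor of progenitor proliferation, and its window at chr10:21146849-21147048 lies inside the gene body, within 1 kb of a transcript start. Klf4 drives monocyte differentiation, and its window lies 2.2 kb upstream at chr4:55534521-55534720. Irf8 encodes a factor that favours monocytes over granulocytes. Its window at chr8:120767452-120767651 lies 15.3 kb downstream of the nearest transcript start of Irf8. That window is outside the Irf8 gene body and inside an intron of the long gene model Gm20388. Gfi1, a repressor that favours granulocytes, has its window 3.6 kb upstream at chr5:107729535-107729734. Gata2, a factor of stem cells and mast cells, has its window 11.9 kb upstream at chr6:88181872-88182071. Id1, which encodes an inhibitor of helix-loop-helix factors, has its window 9.0 kb upstream at chr2:152727128-152727327.
Myb: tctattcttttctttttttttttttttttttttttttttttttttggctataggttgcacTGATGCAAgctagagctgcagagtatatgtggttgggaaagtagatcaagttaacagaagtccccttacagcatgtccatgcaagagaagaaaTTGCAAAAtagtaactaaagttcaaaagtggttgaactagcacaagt
Klf4: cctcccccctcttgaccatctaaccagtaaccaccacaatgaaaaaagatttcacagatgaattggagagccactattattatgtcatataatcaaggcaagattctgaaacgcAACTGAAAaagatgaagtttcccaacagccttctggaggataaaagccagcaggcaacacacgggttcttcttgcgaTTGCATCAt
Irf8: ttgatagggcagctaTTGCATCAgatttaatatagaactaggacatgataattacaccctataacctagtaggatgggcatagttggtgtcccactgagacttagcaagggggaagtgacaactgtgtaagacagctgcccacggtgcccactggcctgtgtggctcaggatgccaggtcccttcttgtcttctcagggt
Gfi1: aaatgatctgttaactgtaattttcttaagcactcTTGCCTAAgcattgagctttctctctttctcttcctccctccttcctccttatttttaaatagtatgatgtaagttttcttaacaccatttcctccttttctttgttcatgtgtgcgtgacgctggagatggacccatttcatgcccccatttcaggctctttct
Gata2: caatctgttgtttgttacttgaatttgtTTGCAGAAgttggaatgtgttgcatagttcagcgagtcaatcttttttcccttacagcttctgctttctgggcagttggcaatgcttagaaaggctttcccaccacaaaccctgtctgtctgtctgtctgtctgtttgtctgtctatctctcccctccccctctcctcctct
Id1: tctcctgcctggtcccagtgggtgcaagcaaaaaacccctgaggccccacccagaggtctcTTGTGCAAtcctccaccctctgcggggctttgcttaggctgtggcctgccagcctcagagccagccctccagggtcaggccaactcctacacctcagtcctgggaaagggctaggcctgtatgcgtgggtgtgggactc
The composite site, in the form TTGCATCA or its reverse TGATGCAA, is present in the Klf4, Irf8 and Myb windows, and a CEBP site of its own in the Myb, Gfi1, Gata2 and Id1 windows.

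The primary lists held 84341 to 230877 peaks, and relative depth, read from the step between the lowest scores, was 40.2% to 100% of the deepest library. GMP replicate 1 was the deepest library, with 230877 peaks, and GMP replicate 2 had 172621 peaks at a relative depth of 78.5%. Of these peaks 70.5% in replicate 1 and 89.8% in replicate 2 overlapped the other GMP library. Promoters of 14 of 15 GMP marker genes, Mpo, Elane, Cebpa, Cebpe and Csf3r among them, were called in both GMP libraries, and Fcgr3 was not. The same count was 14 of 15 in both CFUMK libraries and 13 in each CMP and iMK library. It was 13 and 9 in LSK, 10 and 6 in MON, 8 and 10 in NEU, 8 and 7 in MEP and 1 to 5 in CFUE and ERY libraries. These promoter calls therefore do not separate GMP from CFUMK. Promoters that mark other cells were also called in both GMP libraries, at 3 of 5 erythroid, 3 of 4 megakaryocyte, 3 of 3 mature neutrophil and 3 of 3 stem cell genes. Of the B cell genes 1 of 3 (Pax5) was called in both, and of the T cell genes 1 of 3 (Lck). Mast cell and basophil genes were called at 3 of 3 in GMP replicate 1 and 1 of 3 in GMP replicate 2. No share over all promoters is given here, so these counts have no background beside them. How far cells of other types in the gate bear on the GMP calls was not tested.

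GMP had the largest set of elements called in a single type. The other sets held 8426 (iMK), 8304 (MEP), 7383 (CMP), 5079 (CFUMK), 4820 (MON), 3815 (CFUE), 3590 (ERY), 3441 (LSK) and 2399 (NEU) elements. These counts follow from the rule and are given without a test. When every library was cut to its 84341 highest peaks, GMP kept 5868 such elements and MEP had 7073, so that the order at the top depends on how many peaks each list holds. When an element was dropped if any of the 18 libraries of the other types had a peak there, GMP kept 3687 and MEP 3348.

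**Figure D1:**
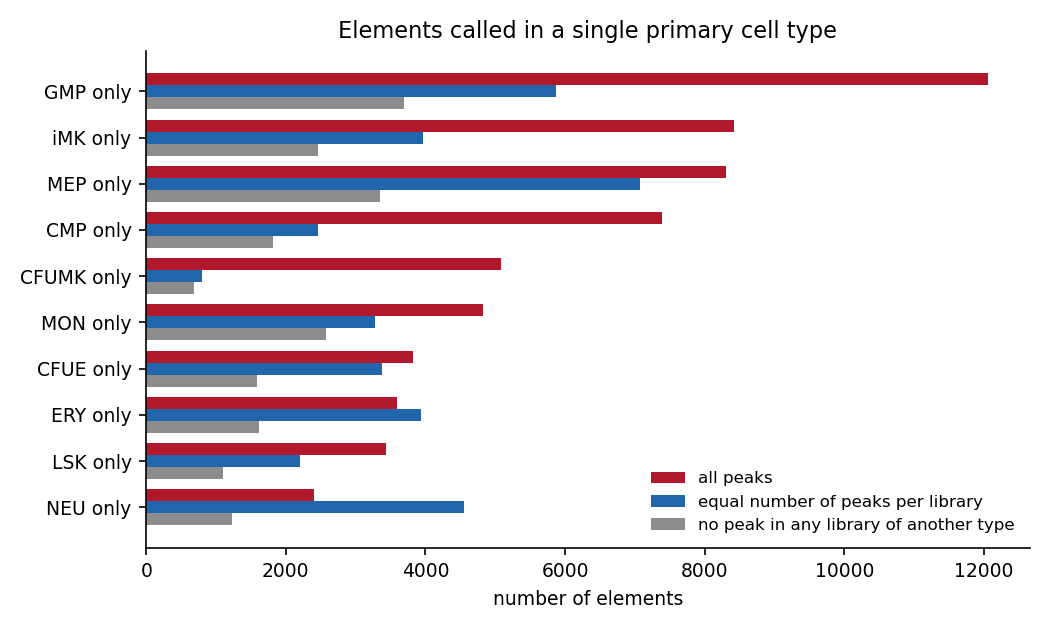
Number of elements called in a single primary cell type (horizontal axis), for the 10 types down the page. Red bars use all peaks, blue bars an equal number of peaks per library, and grey bars drop elements with a peak in any library of another type. GMP has the longest red bar at 12054 and the longest grey bar at 3687, and MEP has the longest blue bar at 7073 beside 5868 for GMP.

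Elements that GMP shared with exactly one other type were mostly shared with the megakaryocyte branch. CFUMK was the partner at 4662 elements, iMK at 3715 and CMP, the progenitor upstream, at 1920. MON and NEU, the mature cells that follow GMP, were the partner at 337 and 124 elements. Of all primary elements, CFUMK and iMK libraries had a peak at 52.3% to 68% and CMP libraries at 58.4% and 63.5%. MON and NEU libraries had one at 24.3% to 34%. How far these list sizes set the partner counts was not tested. Elements called in all 10 types numbered 15789, or 13.8% of GMP elements.

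The rule asks only that no other type had a peak in both of its libraries, so many GMP-only elements had a peak in some other library. Of the 12054, 3687 (30.6%) had no peak in any of the 18 other primary libraries, 3983 had a peak in 1 of them and 4384 in 2 or more. CFUMK replicate 1 had a peak at 21.2% of them and iMK replicate 2 at 20.9%, against 68% and 56.3% of all primary elements. The other library of those types had a peak at 10.6% (CFUMK replicate 2) and 6.63% (iMK replicate 1) of GMP-only elements, where the background was 66.1% and 52.3%. CMP libraries stood at 15.3% and 11.2% (background 63.5% and 58.4%), and LSK libraries at 11.9% and 4.97% (background 54.7% and 38.1%). MON libraries stood at 6.11% and 3.62% (background 34% and 31.6%), NEU libraries at 3.12% and 1.029% (background 30.8% and 24.3%) and MEP libraries at 2.46% and 2.18% (background 42.4% and 43.9%). Erythroid libraries were also low, with 0.987% to 2.12% of GMP-only elements in CFUE and ERY, where 23.9% to 26.4% of all elements had a peak. At 94 elements both libraries of another type had peaks that did not overlap each other. The rule removed elements called in both libraries of another type. Shares below the background in these 18 libraries therefore follow from the choice of elements and are not a result about them.

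Another element of a different type often lay close by. It was within 1 kb at 5463 (45.3%) of the GMP-only elements and within 10 bp at 102. Those 102, just inside the rule, had median scores of 4.66 in GMP replicate 1 and 3.26 in GMP replicate 2. The 21 GMP elements just outside it, whose GMP peaks overlapped another type's call by 10 bp or less, had median scores of 5.21 and 3.49 in the same libraries.

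GMP-only elements were weak peaks of the GMP lists. Their median score was 4.85 in replicate 1 and 3.73 in replicate 2, against 14.4 and 9.43 for the 102562 GMP elements shared with other types. In replicate 1 70.0% of them scored below the median of the whole list, and in replicate 2 82.5%. The top 10% of the list held 11 of them in replicate 1 and 2 in replicate 2. The score is a rank within its own list here, and because it comes from the libraries that chose the elements it carries no test.

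The highest scores belonged to elements near genes of varied function. The element 290 bp upstream of Mex3c, a gene for an RNA-binding ubiquitin ligase, scored 72.8 and 45.3, and another type's element lay 7 bp from it. The element near Bbc3, the gene of the apoptosis protein PUMA, scored 48.5 and 27.0. Siva1 (45.6 and 25.4), Mapkapk3 (41.2 and 26.7) and Rap2a (39.1 and 27.4) were also among the nearest genes, with Esyt1, Tuba4a, Cracr2b and the complement gene C3 after them. Of the 10 highest-scoring elements, 2 had no peak in any other primary library, those near Mex3c and Tuba4a.

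GMP-only elements were mostly distal, described here without a test. Their centre was within 1 kb of a transcript start in 16.1% (1944 elements, 95% Wilson interval 15.5% to 16.8%), against 28.4% of the GMP elements shared with other types. They lay in introns in 43.8% and between genes in 35.3%, against 36.8% and 30.9% of the shared elements, and in exons in 4.75% against 3.96%. The median distance to a transcript start was 7435.5 bp against 5273 bp. The other single-type sets had 13.5% (MEP) to 27.0% (CFUE) at promoters, so GMP-only elements fell inside that range. Such intervals cover counting error only, and neighbouring elements are not replicates.

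Like the other single-type sets, GMP-only elements were narrow. Their median width was 178 bp (range 150 to 714 bp), where a single peak spans at most 150 bp of list coordinates, against 166 bp (CFUMK) to 215 bp (MON) in the other single-type sets and 296 bp for the shared GMP elements, which join peaks of several types. The centre lay in a repeat in 14.8% against 11.3%. Among the 10110 distal elements, those over 1 kb from every transcript start, the mean GC content was 47.4% ± 6.44 (SD over elements), against 48.8% ± 6.43 for 73439 distal shared elements. By chromosome they made up 8.55% (chromosome 7) to 12.8% (X) of the GMP elements, with 1 of 24 on Y.

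The sequence was not used to choose the elements. Consensus motifs, 16 in all, were searched on both strands in 200 bp about the centre of each distal element, with N for any base. C/EBP sites stood out. CEBP (TTGCNNAA) was present in 22.0% of distal GMP-only elements (2225 of 10110, interval 21.2% to 22.8%), against 5.37% (ERY) to 13.4% (iMK) in the other 9 single-type sets and 12.1% of all distal primary elements. CEBP-ATF composite (TGATGCAA) was present in 2.57%, against 0.387% (LSK) to 1.08% (iMK) and 1.15% of all. The CEBP palindrome (TTGCGCAA), which is one form of the CEBP motif, was in 0.346% (35 elements), against 0% to 0.0918% and 0.118% of all. The GMP elements shared with other types had CEBP in 14.8% and the composite in 1.49%. In windows moved 10 kb away from the GMP-only elements CEBP was present in 8.28% and the composite in 0.569%.

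ETS-type sites were frequent too. PU.1 (GAGGAAGT) was present in 10.6% of distal GMP-only elements, against 0.836% (MEP) to 8.87% (iMK) in the other sets and 7.31% of all distal primary elements, and in 1.35% of the windows moved by 10 kb. The GMP elements shared with other types had it in 10.01%, close to the GMP-only share. With equal peak numbers per library GMP-only elements did not lead for PU.1. It was then in 10.3% of them, against 11.3% of iMK-only and 9.09% of MON-only elements. With all peaks, the next motifs were frequent without leading the 10 single-type sets. IRF (AANTGAAA), the site of interferon regulatory factors, was in 10.3%, below NEU at 10.6% (7.41% of all). With equal peak numbers IRF was in 10.8% of GMP-only and 10.7% of NEU-only elements. AP-1 (TGANTCA) was in 10.4%, below ERY at 11.95% (9.17% of all). ETS (ACAGGAAG) was in 7.57%, rank 5 of 10 with LSK highest at 9.96% (6.38% of all), and RUNX (TGTGGTTT) in 3.68%, rank 5 of 10 with CMP highest at 7.84% (4.09% of all).

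The GATA motif, spelled AGATAA, was present in 7.76% of distal GMP-only elements, against 37.3% of MEP-only, 19.8% of CMP-only and 15.04% of all distal primary elements, and the windows moved by 10 kb had 12.2%. GATA, HOXA9 (TGATTTAT, 0.534% against 1.04%) and STAT (2.79% against 2.99%, with overlapping 95% intervals) were the motifs found less often in the elements than in the moved windows. KLF (GGGNGTGG) was in 7.59% (8.68% of all), MYB (AACNGCC) in 7.63% (8.48%), the TAL1 E-box (CAGATG) in 17.0% (18.04%), CTCF (CCACNAGGG) in 1.04% (2.11%), STAT (TTCCNNGAA) in 2.79% (2.67%) and GFI1 (AATCACNGC) in 0.534% (0.447%), and HOXA9 was in 0.649% of all. A match to such letters is a description of the window and does not show that a factor was bound.

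**Figure D2:**
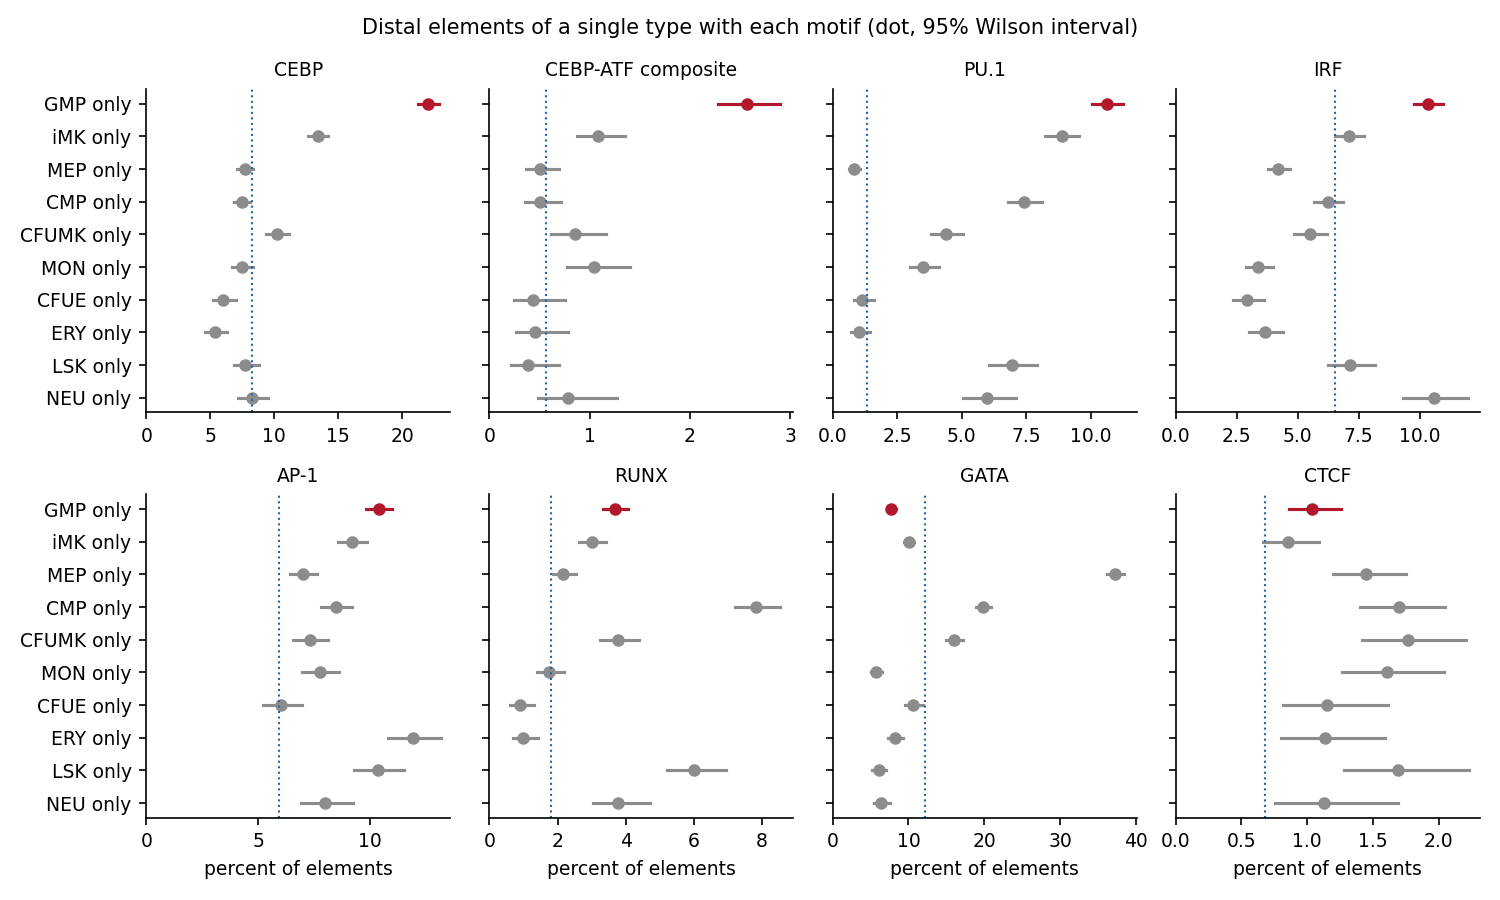
Percent of distal elements of each single-type set with a motif in 200 bp about the centre, for 8 motifs. Dots are the percent and lines its 95% Wilson interval, GMP-only elements are red and at the top, and the dotted line marks windows 10 kb from GMP-only elements. All peaks are used. GMP-only elements stand alone for CEBP (22.0%) and the CEBP-ATF composite (2.57%), lead for PU.1 (10.6%) in this setting, and lie below the dotted line for GATA (7.76%).

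The C/EBP matches gathered at the element centres. Over the central 40 bp a CEBP match began in a mean of 3.74% of distal GMP-only elements per 20 bp, against 1.01% at 400 to 500 bp from the centre, a ratio of 3.70. That ratio was 2.17 for GMP elements shared with other types, 2.08 for iMK-only elements and 0.899 for CMP-only elements. PU.1 matches were centred in all 4 sets, with ratios of 12.9 (GMP only), 11.3 (GMP shared), 9.89 (iMK only) and 8.76 (CMP only).

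**Figure D3:**
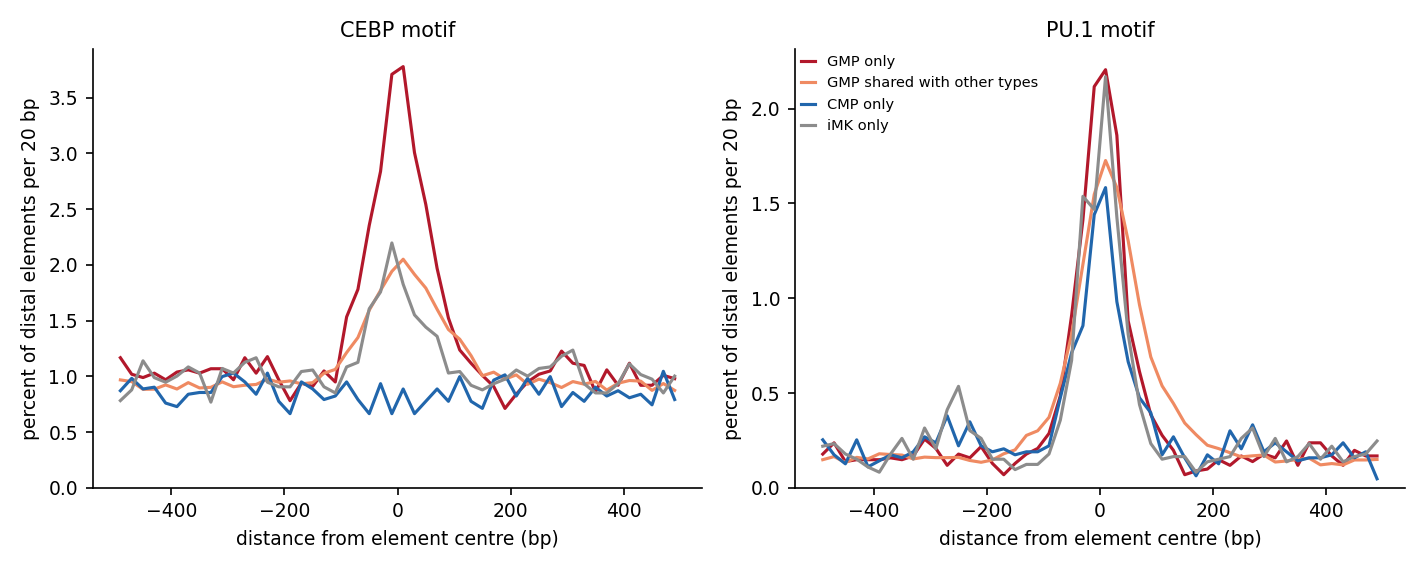
Percent of distal elements with a CEBP match (left) or a PU.1 match (right) per 20 bp (vertical axis) by distance from the element centre in bp (horizontal axis). Lines are GMP-only elements (red), GMP elements shared with other types (orange), CMP-only (blue) and iMK-only elements (grey). The CEBP line of GMP-only elements reaches a mean of 3.74% over the central 40 bp where that of CMP-only elements is at 0.776%, and the PU.1 lines all peak at the centre.

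CEBP and PU.1 matches mostly sat in different elements. A CEBP, composite or PU.1 match was present in 3352 (33.2%) of distal GMP-only elements, against 24.8% of the shared GMP elements. Both CEBP and PU.1 were present in 143 (1.41%). PU.1 was found in 6.43% of the elements with a CEBP match and in 11.8% of those without, and for shared GMP elements these values were 7.81% and 10.4%.

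CEBP and PU.1 ran in opposite directions by score and by peaks in other libraries, and in the same direction by distance to other elements. When the distal elements were split into 4 groups by GMP score, CEBP was in 17.3%, 20.3%, 23.7% and 26.7% from the lowest to the highest scores, and PU.1 in 12.4%, 12.01%, 9.64% and 8.43%. Elements with no peak in any of the 18 other libraries had CEBP in 26.4% and PU.1 in 9.19%, against 19.99% and 11.3% for those with such a peak. Elements over 1 kb from every element of another type had PU.1 in 13.5% against 6.63% for those closer, and CEBP in 22.6% against 21.1%. These splits are descriptions over elements and were not tested.

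To compare GMP with the other types over libraries, motifs and 6-mers were counted in the library-private distal peaks of each of the 20 primary libraries. A library-private peak overlaps no peak of either library of any of the other 9 types, whether or not its own replicate has it. GMP replicate 1 had 23330 private peaks with 20495 distal windows and replicate 2 had 10008 with 8703. Of these private peaks 19.5% and 42.5% overlapped a private peak of the other GMP library. In the other 18 libraries this share was 4.41% (CFUE replicate 1) to 29.4% (CMP replicate 2), with 6.21% to 17.5% in MON and NEU. Its part in the differences below was not tested beyond the fit on reproducible private peaks of the closing section. All 16 motifs and 2080 6-mers were fitted together in limma on the log2 percent of windows, with Benjamini-Hochberg adjustment over all 2096 features and a threshold of 0.05, two-sided. GMP minus the mean of the other 9 types passed at 176 features (8.4%), 128 higher (6.11%) and 48 lower (2.29%) in GMP, and 8 of the 16 motifs passed, all higher. This count was 31 without GMP replicate 1, 99 without GMP replicate 2, 486 without LSK replicate 1 and 340 without LSK replicate 2. The mean GC of the private windows was 46.7% in GMP replicate 1 and 48.7% in GMP replicate 2, against 46.0% to 50.8% in the other libraries, and its part in these counts was not tested beyond the GC-restricted fit of the closing section.

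C/EBP sites separated the GMP libraries from all others. CEBP was in 18.3% of private windows of GMP replicate 1 and 16.5% of replicate 2, against 6.34% (MON replicate 2) to 9.66% (CFUMK replicate 2) in the other 18 libraries. The GMP libraries lay above every other library, and the log2 difference was 1.23 ± 0.0871 (SE; limma adjusted p = 9.03e-07). The composite was in 2.13% and 1.86% in GMP, against 0.394% (LSK replicate 2) to 0.997% (CFUMK replicate 2), again without overlap, with a log2 difference of 1.75 ± 0.0976 (limma adjusted p = 7.49e-08). The palindrome was in 75 and 22 windows of the GMP libraries (0.366% and 0.253%), against 0 to 13 windows in each other library (at most 0.0672%). Its log2 difference of 4.22 ± 0.62 (limma adjusted p = 0.000542) depends on the 0.5 windows added to each count, since some libraries had 0, and it missed the threshold without GMP replicate 1 (3.65). CEBP and the composite passed in all 28 settings tried.

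PU.1 followed the same pattern at a lower level. It was in 8.18% and 6.07% of private windows in GMP, against 0.899% (MEP replicate 2) to 5.03% (CMP replicate 2), with no overlap and a log2 difference of 1.66 ± 0.15 (limma adjusted p = 7.56e-06), and it passed in all 28 settings. IRF was in 8.61% and 6.61% in GMP, against 2.83% to 7.37% (LSK replicate 1), so the groups overlapped at 1 library. Its log2 difference was 0.78 ± 0.16 (limma adjusted p = 0.00654). ETS (5.78% and 4.68% in GMP, 1.98% to 6.57% elsewhere) rose by 0.66 ± 0.10 (limma adjusted p = 0.000913) and AP-1 (9.29% and 8.70% in GMP, 6.27% to 8.91% elsewhere) by 0.32 ± 0.0663 (limma adjusted p = 0.00796). IRF, ETS and AP-1 missed the threshold only without GMP replicate 1, at 0.54, 0.45 and 0.27.

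RUNX was near the threshold. It was in 3.11% and 2.57% of private windows in GMP, against 1.031% (ERY replicate 2) to 5.52% (CMP replicate 2), with a log2 difference of 0.57 ± 0.16 (limma adjusted p = 0.0391) that passed in 18 of 28 settings. It missed the threshold without GMP replicate 1 (0.41) and without GMP replicate 2 (0.71), and without any one of MEP replicate 1, both CFUE, both ERY and both MON libraries or iMK replicate 1 (0.53 to 0.57). GATA was in 8.64% and 7.35% in GMP, against 6.13% (LSK replicate 2) to 27.1% (MEP replicate 2), with a log2 difference of -0.44 ± 0.15 that did not pass (limma adjusted p = 0.101). The other motifs had differences of 0.13 (KLF), 0.07 (GFI1 and STAT), 0.02 (MYB and HOXA9), -0.0040 (CTCF) and -0.08 (TAL1 E-box), none past the threshold.

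**Figure D4:**
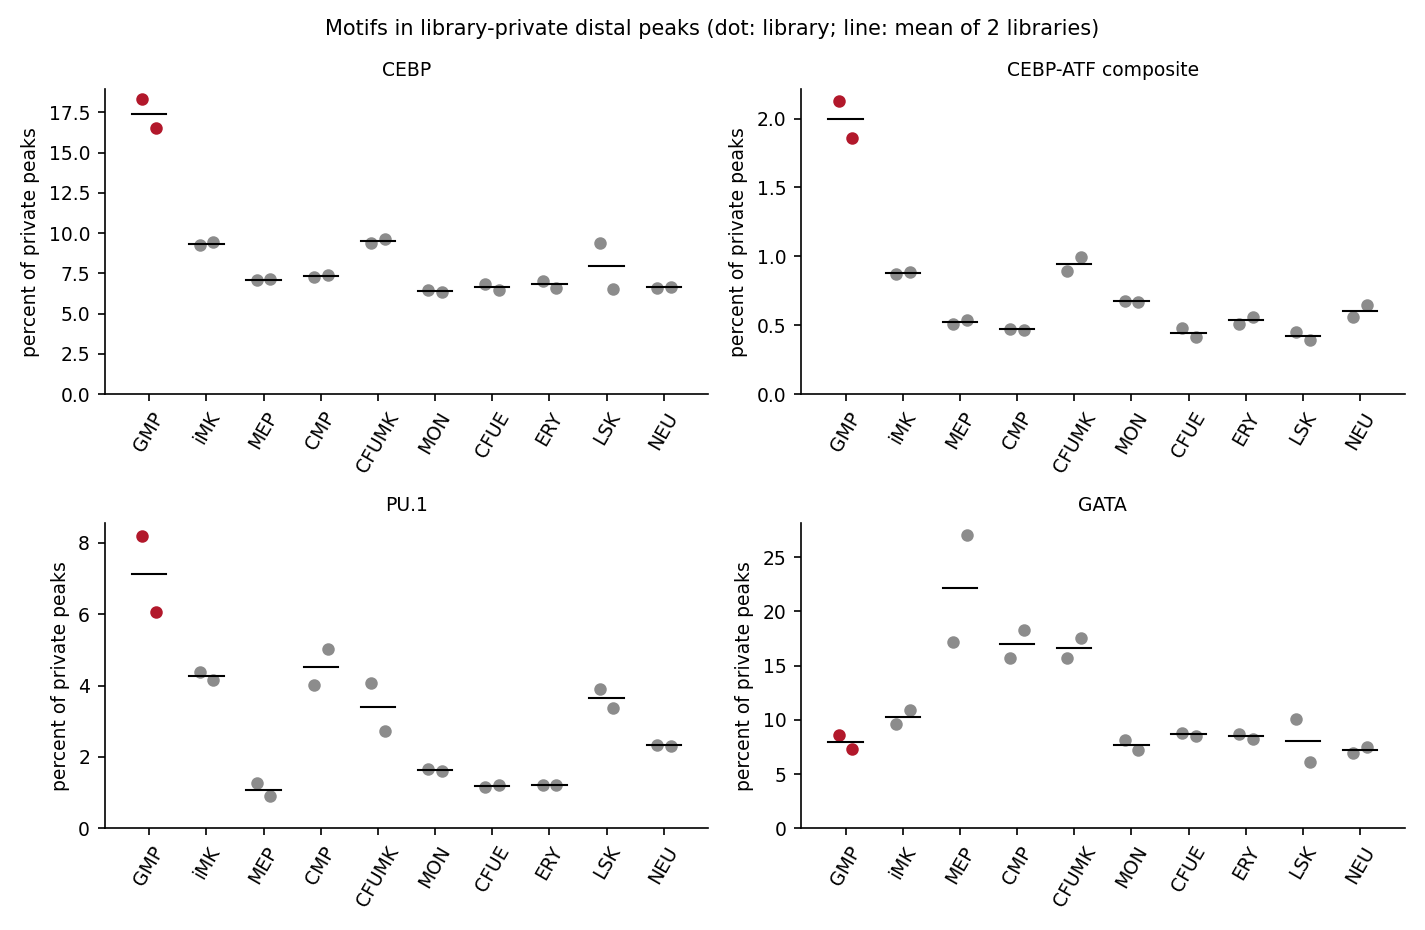
Percent of library-private distal peaks with a motif (vertical axis) in each library of the 10 primary types (horizontal axis), for CEBP, the CEBP-ATF composite, PU.1 and GATA. Dots are libraries and lines the mean of 2, with GMP in red at the left. Both GMP libraries lie above all 18 others for CEBP (18.3% and 16.5%), the composite (2.13% and 1.86%) and PU.1 (8.18% and 6.07%), and among the low ones for GATA.

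The 6-mers need no chosen motif, though 6-mers that overlap are not independent. Of the 120 6-mers that were higher in GMP, 22 contained GCAA, with which the CEBP palindrome ends, and 15 contained GGAA, the centre of an ETS site. GCAA is found in 2.31% of all 6-mers. None of the 120 contained GATA, which was in 7 of the 48 that were lower. The largest rise was ATTGCG (2.14% and 1.82% of windows in GMP, 0.627% to 0.956% elsewhere, log2 difference 1.37 ± 0.11, limma adjusted p = 2.33e-06), followed by TCGCAA (1.00 ± 0.12). ACTTCC, contained in the PU.1 motif when read on the other strand, was in 31.5% and 25.7% of GMP windows against 9.95% to 23.1% (0.91 ± 0.0802). GCGTAA (0.87) and ATTACG (0.86) also rose, and these 5 passed in all 28 settings.

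The remaining named rises were rich in CG and less stable. CGGCCG (0.97), CGCGCG (0.95), CCGCGC (0.95), CGCGCC (0.89) and CCGCGG (0.81) each passed in 22 to 26 of 28 settings. With an equal number of peaks per library CGCGCC stood at -0.12 and CCGCGG at -0.086. Except for CGGCCG, at least 1 other library reached the level of the lower GMP library for each of them. The 5 largest falls were CAGGTA (-0.58 ± 0.11), CTTATC (-0.49), GGTACC (-0.44), CACCTG (-0.43) and GAGATA (-0.38). CAGGTA was in 5.997% and 6.94% of GMP windows, against 4.53% (CMP replicate 2) to 12.01% (NEU replicate 1), so 1 other library was lower. CTTATC and GAGATA contain the core of a GATA site. CTTATC passed in 19 of 28 settings and missed the threshold without any one of both GMP, both CFUE and both ERY libraries, CMP replicate 2, MON replicate 1 or NEU replicate 1 (-0.49 to -0.45). The other 4 passed in 26 or 27 settings, and each missed it without GMP replicate 1 (CAGGTA at -0.45, GGTACC at -0.33, CACCTG at -0.17 and GAGATA at -0.36). GAGATA also missed it without GMP replicate 2 (-0.36), and CACCTG among the 7 types whose library numbers run together (-0.31).

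Against CMP, the progenitor that precedes GMP, C/EBP sites were higher and GATA sites lower. This comparison and the 2 that follow share the GMP libraries and are not independent of each other. It passed at 54 features (2.58%), 37 higher (1.77%) and 17 lower (0.811%) in GMP. CEBP rose by 1.24 ± 0.12 (limma adjusted p = 4.36e-05), the composite by 2.07 ± 0.13 (limma adjusted p = 4.26e-07) and the palindrome by 4.13 ± 0.83 (limma adjusted p = 0.013), the last with 6 and 0 windows in the CMP libraries. GATA fell by 1.09 ± 0.21 (limma adjusted p = 0.00879), with 8.64% and 7.35% in GMP against 15.7% to 18.3% in CMP. PU.1 (0.65 ± 0.20, limma adjusted p = 0.121) and RUNX (-0.71 ± 0.21, limma adjusted p = 0.103) did not pass. Of the 34 6-mers that were higher, 15 contained GCAA, and of the 16 that were lower, 9 contained GATA. The count was 28 without GMP replicate 1, 24 without GMP replicate 2, 16 without CMP replicate 2, 131 without LSK replicate 1 and 132 without LSK replicate 2. GATA missed the threshold without GMP replicate 2 (-0.96) and without CMP replicate 2 (-0.97). The palindrome missed it without GMP replicate 1 (3.19), GMP replicate 2 (4.42) or CMP replicate 2 (2.88).

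Against MON and NEU, the blood cells that follow GMP, more motifs differed. The comparison passed at 355 features (16.9%), 199 higher (9.49%) and 156 lower (7.44%) in GMP, and 8 motifs were higher. PU.1 rose by 1.85 ± 0.17 (limma adjusted p = 1.38e-05), CEBP by 1.42 ± 0.10 (limma adjusted p = 1.25e-06), RUNX by 1.07 ± 0.18 (limma adjusted p = 0.00153) and IRF by 1.05 ± 0.18 (limma adjusted p = 0.00176). The composite (1.64), ETS (0.72), AP-1 (0.47) and the palindrome (4.26) passed as well. ETS, IRF and RUNX missed the threshold without GMP replicate 1, at 0.54, 0.84 and 0.93. CACCTG, an E-box, fell by 0.73 ± 0.13 (limma adjusted p = 0.00157), and CAGGTA by 0.89 ± 0.13 (limma adjusted p = 0.000602). The count was 60 without GMP replicate 1, 182 without MON replicate 1, 143 without MON replicate 2, 177 without NEU replicate 1, 821 without LSK replicate 1 and 781 without LSK replicate 2.

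Against iMK, one of the types most like GMP in its calls, only C/EBP motifs passed. The comparison passed at 31 features (1.48%), 30 higher (1.43%) and 1 lower (0.0477%) in GMP. The composite rose by 1.17 ± 0.13 (limma adjusted p = 0.000652) and CEBP by 0.90 ± 0.12 (limma adjusted p = 0.000909). PU.1 was at 0.72 ± 0.20 (limma adjusted p = 0.093) and the palindrome at 2.74 ± 0.83 (limma adjusted p = 0.131). Of the 28 6-mers that were higher, 13 contained CG, found in 29.0% of all 6-mers, and 5 contained GCAA, found in 2.31%. The largest rises were CGCGCC (1.25), CCCGCG (1.14), ATTGCG (1.13) and ACCGCG (1.13). Without GMP replicate 1 CEBP stood at 0.73 and missed the threshold. The count was 8 without GMP replicate 1, 13 without GMP replicate 2, 10 without iMK replicate 1, 9 without iMK replicate 2, 20 without ERY replicate 1, 64 without CFUMK replicate 1, 53 without CFUMK replicate 2, 120 without LSK replicate 1 and 131 without LSK replicate 2.

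The cell lines, which the rule did not use, had few peaks at GMP-only elements. The G1E-ER4+E2 libraries had a peak at 0.929% and 1.203% of them, and the G1E libraries at 0.921% and 1.12%, against 17.4%, 19.2%, 14.1% and 15.8% of all primary elements in the same order. The mean was 1.07% ± 0.19 in G1E-ER4+E2 and 1.02% ± 0.14 in G1E (SD, n = 2 each). The difference of 0.0456 percentage points was smaller than the spread between libraries (exact permutation test, two-sided, p = 0.667, where the smallest possible is 0.33). It stood at -0.216 when the 4 lists were cut to equal length.

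Within each cell line library the share for GMP-only elements could be set against that of the other single-type sets. Over the 4 libraries it averaged 1.04% ± 0.14 (SD), against 10.0% for MEP-only, 5.84% for CFUE-only, 5.08% for ERY-only, 4.43% for CFUMK-only and 3.21% for CMP-only elements. NEU-only (1.66%), LSK-only (1.47%), iMK-only (1.42%) and MON-only elements (1.33%) were closer. The GMP-only share was lower in 4 of 4 libraries for 8 of the sets and in 3 of 4 for MON-only elements. The exact permutation test over the 4 libraries gave the smallest p it allows for those 8 sets (adjusted over the 9 comparisons p = 0.141) and p = 0.25 for MON (adjusted 0.25), so the design cannot pass 0.05. Among distal elements the LSK-only (p = 0.375) and MON-only (p = 0.5) differences were not of one sign across the libraries by the same exact test. Sequencing of the cell line libraries was shallower, at a relative depth of 22.3% to 27.0%.

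GMP-only elements were spread over 8259 of 21884 protein-coding genes (37.7%), where a gene is taken from 20 kb before its start to 20 kb past its end. Long genes collected the most. The gene model Gm20388, which spans 4435 kb, had 47, Fgfr2 and Pde4d 16 each, Rora and Sox5 12 each, Aff3 and Pde7b 11 each, Srgap2 10, and 2010111I01Rik, Auts2, Itsn1 and Med13l 9 each. Fgfr2 encodes a fibroblast growth factor receptor, Pde4d and Pde7b encode phosphodiesterases of cyclic AMP, and Rora encodes an orphan nuclear receptor.

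Genes of myeloid transcription factors carried a GMP-only element more often than genes at large, but GMP-only elements were a similar share of the GMP elements there, 9.93% against 9.33% over all genes. At least 1 GMP-only element was present at 24 of 40 (60%), against 37.7% of all protein-coding genes, and the list had 1.33 elements per 100 kb against 0.678. The median per gene was 1 in this list and 0 over all genes. With 5 kb on each side the share was 52.5% against 26.0%, and with 100 kb 85.0% against 70.8%. The list was written with earlier results of these data known, and no set test was run.

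The genes of that list with the most were long. Etv6, an ETS family repressor needed for marrow blood formation, had 7 over a gene body of 234 kb, Runx2 6 over 319 kb, Runx1, a core regulator of blood stem cells, 5 over 225 kb, and Meis1, a partner of HOX proteins, 4 over 139 kb. Rara, Satb1 and Tcf7l2 had 3 each, and Irf8, Myb, Mycn, Fli1, Ikzf1, Ikzf2, Bcl11a and Mef2c 2 each. Chosen after their values were seen, Cebpa, Cebpe and Spi1, which encode leading regulators of GMP and are short genes of 2.64, 1.815 and 33.4 kb, had 0, although 7, 6 and 12 elements called in GMP lay at them. All of those were shared with other types. The same was true of Elane, the neutrophil elastase gene, and Csf3r, the receptor of granulocyte colony stimulating factor, each with 7 GMP elements and 0 GMP-only ones.

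Effector genes of granulocytes gave no stable direction against all genes. Primary granule genes had a GMP-only element at 7 of 25 (28.0%) and secondary granule and mature neutrophil genes at 8 of 26 (30.8%), both below the 37.7% of all genes. With 5 kb on each side they stood at 12% and 15.4% against 26.0% of all genes, but with 100 kb at 92% and 80.8% against 70.8%, and with equal peak numbers at 44% and 26.9% against 23.2%. Per 100 kb they had 0.745 and 0.641 elements against 0.678 over all genes. Of the GMP elements at them 4.65% and 4.55% were GMP-only, against 9.33% over all genes. Prss57, a serine protease of the primary granules, Serpinb1a, an inhibitor of neutrophil proteases, and Anxa1 had 2 each and Bpi 1. Of the later granule genes Mmp9, which encodes a gelatinase, had 2, and Cd177, Fpr1, Itgam, Lcn2 and Ltf 1 each. Monocyte and macrophage genes had one at 14 of 25 (56.0%), with 2 each at Ly86, Mrc1, Ms4a7 and Treml4. Of the GMP elements at these monocyte and macrophage genes 7.53% were GMP-only, below the 9.33% over all genes. All 6 elements called in any type at Ms4a7 were called in GMP.

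The lists of other lineages lay on both sides of the 37.7% of all genes. Cytokine receptor genes of progenitors had one at 9 of 25 (36.0%), among them Ifngr1 and Tgfbr2, the receptors of interferon gamma and TGF beta, with 4 each, and Flt3 and Ifnar2 with 2 each. Stem and multipotent progenitor genes stood at 12 of 26 (46.2%), with 7 at Angpt1 and 5 at Mecom. Megakaryocyte genes stood at 11 of 25 (44.0%), with 4 at Vwf, and erythroid genes at 10 of 30 (33.3%), with 2 each at Bcl11a, Slc25a37, Sptb and Tfrc. Mast cell, basophil and eosinophil genes stood at 8 of 22 (36.4%), with 2 each at Il4 and Il13. B cell genes stood at 9 of 17 (52.9%), T and NK cell genes at 9 of 25 (36.0%), dendritic cell genes at 7 of 19 (36.8%), housekeeping genes at 7 of 18 (38.9%) and genes of other tissues at 7 of 22 (31.8%). With equal peak numbers, where 23.2% of all genes had one, the cytokine receptor (40%), mast cell (27.3%), T and NK cell (24%) and dendritic cell lists (31.6%) lay above it and the stem cell list (19.2%) below, each on the other side from before. The flank mattered too. With 5 kb on each side (26.0% of all genes) the B cell (17.6%), megakaryocyte (24%) and housekeeping lists (22.2%) moved below. The cytokine receptor (28%), T and NK cell (28%) and dendritic cell lists (36.8%) moved above. With 100 kb (70.8% of all genes) the cytokine receptor (76%), mast cell (90.9%), dendritic cell (100%) and other tissue lists (77.3%) moved above.

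Etv6 shows how GMP-only elements sit among shared ones. Its gene body of 234 kb and 20 kb on each side held 81 elements, of which 46 were called in GMP, 40 in iMK, 38 in CFUMK, 29 in MEP, 28 in CMP, 21 in MON, 15 in NEU, 12 in LSK, 4 in ERY and 3 in CFUE. The 7 GMP-only elements lay 1 upstream and 6 in introns. The strongest by mean score percentile, at chr6:134122006-134122200, scored 23.2 and 16.2 in the GMP libraries and had no peak in any other primary library, and 2 more had none. MEP had 15 elements of its own at this gene, more than GMP, and iMK had 5.

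**Figure D5:**
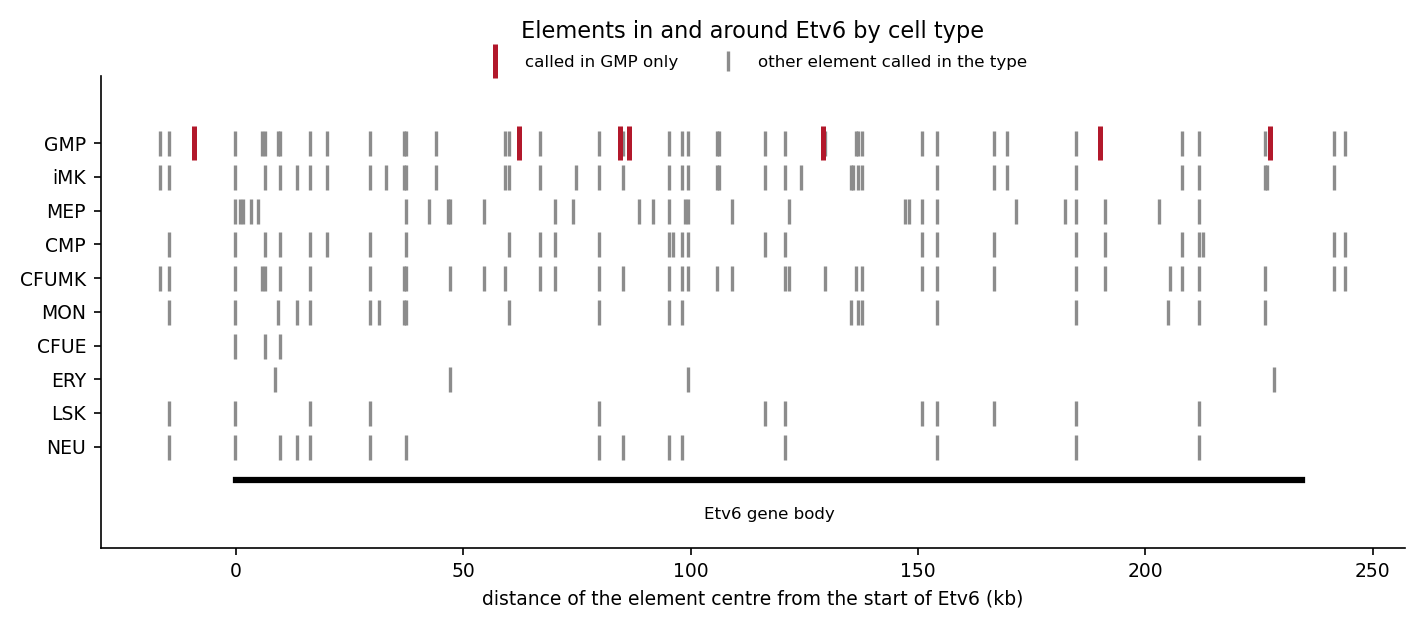
Elements called in each primary type (one line each, GMP at the top) by distance of their centre from the start of Etv6 in kb (horizontal axis), with the gene body as a black bar. Red marks are the 7 elements called in GMP alone, and grey marks are all others. The red marks are scattered along the 234 kb gene among the grey marks of shared GMP elements, and the erythroid lines are nearly empty, with 3 elements in CFUE and 4 in ERY.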

How the data were processed

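Reads were trimmed by the authors to 30 bases and mapped with Bowtie 0.12.8 on mm10, mitochondrial and unplaced sequences were taken out, SAMtools (1.6 in the submitters' notes) and bedtools handled the alignments, and HOMER called the peaks of every library separately. Each deposited list gives chromosome, start, end, an unnamed decimal score and an unnamed whole number that was not used. The score was computed by the authors, its unit was not given in the sources used here, and it served only to rank peaks within a list and to read relative depth from the step between scores under 10. Groups follow the labels. All ends fit GRCm38.p6, whose sequence was used with GENCODE vM21.

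Analyses used Python 3.11.15 (numpy 2.4.6, pandas 2.3.3, numba 0.67.0, scipy 1.17.1, matplotlib 3.10.9). Models were fitted by limma 3.58.1 in R 4.3.3 (trend and robust, group means of 20 libraries, 0.5 windows added to each count and 1 to each total). The fit was tested on simulated data. Members and lists were chosen with earlier results of these data known. Named genes are the 12 with the most GMP-only elements, up to 4 per gene list (334 genes in 14 lists, 333 matched) and those nearest the 10 highest-scoring elements, of which 1 is not reported here. Named 6-mers are the 10 largest rises and 5 largest falls past the threshold, and all 16 motifs are given. The counts of the other single-type sets under equal peak numbers and with no peak in any other library were added after seeing the data.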

Additional observations from a re-analysis of the deposited data

How the results depend on the processing

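The labels give no replicate numbers to pair. The library numbers of 7 types fall into 2 runs, and with that run as a block GMP minus the others among them passed at 242 features, against 176 over all 10 types. The cause of each change below was not tested.

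The number of GMP-only elements (12054) was 3687 with no peak allowed in any other primary library, 5868 with equal peak numbers and 6591 over 1 kb from other elements, and 9515 to 43344 with one library left out (21446 without GMP replicate 1, 43344 without GMP replicate 2). When a library was left out, its type kept all peaks of the remaining library, with no overlap between replicates asked. The ranges with one library left out in this paragraph therefore also reflect a looser rule for that type. The share within 1 kb of a transcript start (16.1%) was 13.6% with no other peak, 18.8% with a 75 bp overlap, 17.5% without the lowest-scoring 25% of peaks, 17.0% among the 7 types numbered together and 10.7% over 1 kb from other elements, and 14.3% to 16.9% with one library left out. The CEBP share (22.0%) was 26.4%, 26.6% with equal peak numbers, 20.9% with the 75 bp overlap, 23.5% without the lowest scores, 18.7% in 150 bp and 29.1% in 400 bp, and 16.3% to 23.5% with one library left out.

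Counts of features past the threshold moved more. GMP minus the other 9 types (176) gave 279 with promoters, 327 with GC content of 45 to 55%, 1265 among reproducible private peaks and 522 with equal peak numbers, and 31 to 486 with one library left out. Against CMP (54) these were 91, 152, 1041 and 250, with 83 among the 7 types with the run of the library number as a term, and 16 to 132. Against MON and NEU (355) reproducible peaks gave 1389 and equal peak numbers 628, and 60 to 821. Against iMK (31) the values were 150, 75, 808 and 83, with 56 among the 7 types, and 8 to 131. The difference of G1E-ER4+E2 and G1E (0.0456) was -0.216 with equal peak numbers and -0.0913 to 0.183 with one library left out. Genes with a GMP-only element (8259) numbered 15486 with 100 kb and 5081 with equal peak numbers, and 5682 with 5 kb.

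Small differences changed sign. Against the other types HOXA9 was -0.049 with promoters, -0.083 among reproducible peaks and -0.16 with equal peak numbers (-0.046 to 0.089 with one library left out). CTCF was 0.039 with promoters, 0.20 with GC of 45 to 55% and 0.10 in 150 bp (-0.12 to 0.085), and GFI1 ranged over -0.029 to 0.17. CCGCGG was -0.045 with GC of 45 to 55% and -0.086 with equal peak numbers, where CGCGCC was -0.12. With equal peak numbers CCGATA against MON and NEU was 0.019, and against iMK ACCGCG was -0.18 and GCGCAA -0.013. GATA against the other types passed in 7 alternatives, among them GC of 45 to 55% (-0.57) and equal peak numbers (-0.56). Where leaving one out left 1 library for a type, the spread of the other types was assumed for it. Peak lists do not show how many open sites shallow sequencing failed to call.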
